A study of Mus musculus with 17 samples.

Results

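The accessible chromatin of 10 transcription factor genes that define the medium spiny neuron, the principal projection neuron of the striatum, was examined in nucleus accumbens neurons of male and female mice. The genes were Bcl11b, Foxp1, Foxp2, Meis2, Ebf1, Isl1, Sp9, Six3, Rarb and Zfp503. They were chosen by name, and their regions were all those where an ATAC-seq peak of any of the 17 libraries overlapped the gene body extended by 20 kb on each side. ATAC-seq uses a transposase to insert sequencing adapters into open DNA, so a peak marks chromatin that was accessible. Overlapping peaks of the 17 libraries were merged into 281189 regions on the autosomes and the X chromosome, of which 817 lay in the 10 gene windows. A region was kept when at least 2 libraries of 1 group called it, which left 424 of 147420 regions at the 10 genes.

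All animals were mice of the C57BL/6 strain (C57BL/6J in the methods) aged 52 to 54 days, and each library held NeuN-positive nuclei, sorted as neuronal, from the nucleus accumbens of both hemispheres of 3 pooled animals. The cocaine groups were killed 1 h after 1 intraperitoneal dose of 10 mg/kg, and the controls received no cocaine. The methods mention no vehicle injection for them, so the injection and the drug cannot be told apart. Females were in diestrus, a stage of low estrogen, or in proestrus, when estrogen is high. There were 3 libraries of diestrus control, 3 of diestrus cocaine, 3 of proestrus control, 3 of proestrus cocaine, 3 of male control and 2 of male cocaine. For diestrus cocaine 2 the stage field reads NA, and only the title places it in diestrus.

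Medium spiny neurons arise from the ventral telencephalon and divide into a direct-pathway class, which carries dopamine D1 receptors, and an indirect-pathway class, which carries D2 receptors. Bcl11b (also called Ctip2), Foxp1 and Meis2 are used across both classes. Isl1 and Ebf1 are needed for direct-pathway neurons, and Foxp2 and Zfp503 (Nolz-1) are known for roles in that lineage and in the striatal matrix. Sp9 and Six3 are needed for indirect-pathway neurons, and Rarb encodes a retinoic acid receptor enriched in the striatum. The sorted nuclei held both classes, so fewer nuclei of 1 class and less accessible chromatin per nucleus cannot be told apart in any result below.

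A region is named by its gene and by the distance of its strongest summit from the annotated gene start, with plus in the direction of transcription. The 9 windows that follow hold the summits of the regions on which the comparisons turn. The first 2 (Isl1) and the next 3 (Foxp2) are regions called more often after cocaine, the Meis2 window is called in opposite directions in diestrus and males, and the last 3 are regions at Six3, Sp9 and Zfp503 whose peak height was lower in male than in female controls. Each is 200 bases of the plus strand of GRCm38 (mm10), read 5′ to 3′, and capitals mark any match to the 7 motifs searched on both strands.
Isl1 -6.6 kb, chr13:116316198-116316397: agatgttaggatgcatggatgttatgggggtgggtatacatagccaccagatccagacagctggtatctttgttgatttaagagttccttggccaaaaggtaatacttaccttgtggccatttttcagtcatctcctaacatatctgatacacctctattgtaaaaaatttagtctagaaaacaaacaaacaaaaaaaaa
Isl1 -3.5 kb, chr13:116313121-116313320: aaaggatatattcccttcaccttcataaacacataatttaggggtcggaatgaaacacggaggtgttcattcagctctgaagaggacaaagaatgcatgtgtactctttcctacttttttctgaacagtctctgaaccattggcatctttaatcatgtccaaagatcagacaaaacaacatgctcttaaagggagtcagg
Foxp2 +95.4 kb, chr6:14996624-14996823: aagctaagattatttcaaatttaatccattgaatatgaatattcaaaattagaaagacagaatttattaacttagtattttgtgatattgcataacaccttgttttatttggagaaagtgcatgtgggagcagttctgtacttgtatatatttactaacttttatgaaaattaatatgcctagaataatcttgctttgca
Foxp2 +500.1 kb, chr6:15401331-15401530: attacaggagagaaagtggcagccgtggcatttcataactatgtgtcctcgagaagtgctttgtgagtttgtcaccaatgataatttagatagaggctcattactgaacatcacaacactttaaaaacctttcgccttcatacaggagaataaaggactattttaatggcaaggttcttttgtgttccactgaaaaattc
Foxp2 +534.3 kb, chr6:15435541-15435740: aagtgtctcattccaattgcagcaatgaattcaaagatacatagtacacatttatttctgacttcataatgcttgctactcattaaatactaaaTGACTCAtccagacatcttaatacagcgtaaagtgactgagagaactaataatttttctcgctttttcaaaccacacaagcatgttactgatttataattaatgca
Meis2 +56.0 kb, chr2:116009699-116009898: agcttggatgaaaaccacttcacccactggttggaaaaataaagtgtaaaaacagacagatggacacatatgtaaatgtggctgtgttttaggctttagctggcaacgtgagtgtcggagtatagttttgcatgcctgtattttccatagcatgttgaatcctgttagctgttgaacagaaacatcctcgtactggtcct
Six3 -0.3 kb, chr17:85613191-85613390: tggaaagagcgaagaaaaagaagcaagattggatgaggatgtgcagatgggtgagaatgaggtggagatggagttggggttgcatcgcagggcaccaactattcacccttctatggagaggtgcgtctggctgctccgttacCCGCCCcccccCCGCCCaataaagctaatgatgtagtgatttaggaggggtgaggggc
Sp9 -0.1 kb, chr2:73271696-73271895: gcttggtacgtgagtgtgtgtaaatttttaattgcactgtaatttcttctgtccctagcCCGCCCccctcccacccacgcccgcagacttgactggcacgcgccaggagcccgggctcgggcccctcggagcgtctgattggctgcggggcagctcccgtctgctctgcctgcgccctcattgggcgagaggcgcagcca
Zfp503 -6.0 kb, chr14:21995475-21995674: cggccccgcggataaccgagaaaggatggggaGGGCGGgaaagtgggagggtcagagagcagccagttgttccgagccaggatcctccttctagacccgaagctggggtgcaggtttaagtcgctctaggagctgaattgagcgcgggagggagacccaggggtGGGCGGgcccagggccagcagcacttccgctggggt

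The motifs were TGACTCA or TGAGTCA (AP-1, bound by Fos and Jun proteins), TGACGTCA (cAMP response element), TGTTTAC (forkhead), TGACAG (MEIS), TCCCNNGGG (EBF), GGGCGG (GC box, bound by the SP family) and AGGTCA (nuclear receptor site). The Foxp2 +534.3 kb window held the AP-1 motif, the Six3, Sp9 and Zfp503 windows held GC boxes, and the other 5 held none of the 7. Over windows of the same length at the 424 regions, the AP-1 motif was in 6.37%, against 10.0% of all 147420. The MEIS motif was in 16.3% against 17.6%, the forkhead motif in 1.89% against 2.01% and the EBF motif in 3.07% against 2.51%. The nuclear receptor site was in 8.25% against 7.88%, the cAMP response element in 0.472% against 0.494%, and the GC box in 4.72% against 8.95%. Of the 65 Rarb regions 13.8% held the nuclear receptor site, and of the 62 Meis2 regions 14.5% did. A match describes the letters and is not a bound site.

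The 10 windows differed widely in how much of their DNA lay under peaks. Bcl11b was the most covered, with peaks over a median of 53.6% of its 133 kb window across the 17 libraries (range 22.1% to 72.4%), and 60 protein-coding genes had a higher median. Meis2 followed with 40.4% of 243 kb and Foxp1 with 23.7% of 637 kb. The median over 21755 protein-coding genes was 3.69% and the 95th percentile 26.4%. Zfp503 (17%), Sp9 (14.8%), Six3 (12.3%), Rarb (9.97%) and Isl1 (5.86%) lay between these values, while Foxp2 (3.12%) and Ebf1 (1.40%) lay under the median gene.

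The high coverage of Bcl11b came from a few broad regions. Its 3 regions called in all 17 libraries were 41.7, 33.1 and 24.2 kb wide after merging, and the last of them held the gene start. The Meis2 start lay in a region of 35.6 kb (chr2:116041583-116077145). Foxp1, which codes for a forkhead repressor, had the most regions, 159, of which 143 lay in introns and 8 at alternative transcript starts. The median width at the 10 genes was 898 bp, against 714 bp over all regions.

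Peaks at the 10 genes lay mostly away from promoters. Only 7 of the 424 regions (1.65%) had their summit within 1 kb of a protein-coding start, against 7.44% of all regions. The regions of 9 genes included 1 that held the annotated start or lay within 1 kb of it. The exception was Rarb, which had no kept region at its annotated start and 1 at another transcript start. Of the 424 regions, 82 (19.3%) were called in all 17 libraries, against 25.0% of all regions.

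The strongest regions were called in every library. Zfp503 +1.2 kb (chr14:21984490-21990228), which covers most of that short gene, had a median fold enrichment of 16.3 over the 17 libraries, where fold enrichment is the peak caller's ratio of pileup to local background at the summit. Bcl11b +33.5 kb had 14.3. They were followed by intronic regions, Rarb +148.5 kb (chr14:16669018-16672212) with 13 and Foxp1 +81.4 kb (chr6:99438901-99444175) with 12.5. The gene-start regions of Foxp2 (6.37), Six3 (7.06), Ebf1 (7.29), Sp9 (7.33) and Isl1 (7.81) were lower.

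The libraries held 75458 to 157005 peaks, and the 2 male cocaine libraries held the fewest, 87707 and 75458. The number of reads was not used, so a missing call means only that no peak was called at a depth unknown here. All 4 neuronal and all 8 medium spiny neuron marker promoters (among them Drd1, Drd2, Adora2a and Tac1) carried a peak in all 17 libraries. Of 6 interneuron markers, 0 to 2 were called per library, with Chat, Slc5a7 and Pvalb at 0 throughout. Of 11 glial and vessel markers, 7 were at 0 in all libraries, while the promoter peaks of Mbp and Gfap were called in 17 and 16. Markers of cortical excitatory neurons moved with the groups: of Slc17a7, Neurod6, Tbr1 and Neurod2, 4 were called in each male control (summed fold enrichment 26.2 to 31.9), 3 in each proestrus control (14.7 to 15.7), 1 to 3 in proestrus cocaine (3.96 to 8.69), 0 to 2 in diestrus control (0 to 17.4) and diestrus cocaine (0 to 16.7), and 0 in male cocaine. Their part in the differences of males and of proestrus females below was not tested.

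The first comparison asked whether the number of peaks in each gene window, per 10000 peaks of the library, differed after cocaine. A number of peaks is not an amount of open DNA. At Bcl11b, proestrus control 3 had 42 peaks over 72.4% of the window, and male control 1 had 84 over 53.6%. Isl1 and Foxp2 had more peaks after cocaine. Isl1, a LIM-homeodomain factor, had 0.155, 0.216 and 0.205 peaks per 10000 in the 3 diestrus controls and 0.764, 1.70 and 2.00 after cocaine. It had 0.643, 0.816 and 0.676 in the proestrus controls and 1.17, 1.26 and 1.47 after cocaine. Male controls had 0.200, 0.446 and 0.336, and the male cocaine libraries 0.684 and 0.663. The treated and control libraries did not overlap within any of the 3 strata.

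With treatment permuted within diestrus, proestrus and males, the mean Isl1 difference was 0.743 peaks per 10000, with an exact two-sided permutation p of 2.50e-04, the smallest that 4000 assignments can give (8 cocaine and 9 control libraries). Benjamini-Hochberg adjustment over 18877 genes gave an adjusted permutation p of 0.0369. The unscaled numbers of Isl1 peaks were 2, 3 and 3 against 12, 19 and 20 in diestrus, and 8, 10 and 9 against 15, 15 and 19 in proestrus. In males they were 3, 6 and 5 against 6 and 5, so there the separation was in the share of a library's peaks and not in their number.

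Foxp2, a forkhead factor of striatal circuits, had 2.64, 2.09 and 2.87 peaks per 10000 in the diestrus controls and 3.25, 5.90 and 6.41 after cocaine. The male controls had 1.40, 3.12 and 2.35, and the male cocaine libraries 6.84 and 7.16. In proestrus, values of 4.10, 2.94 and 2.25 in controls and 5.45, 2.93 and 6.48 after cocaine overlapped. The mean difference was 3.07 per 10000, with an exact permutation p of 0.00150 (8 and 9 libraries) and an adjusted permutation p of 0.0477.

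Over all genes, 1.74% passed at an adjusted p under 0.05 with more peaks and 1.81% with fewer, and 28.0% had an unadjusted exact p under 0.05. Of the 10 genes, Isl1 and Foxp2 were higher, none was lower, and the other 8 did not pass, from Ebf1 (difference 0.463, adjusted permutation p = 0.0813) and Sp9 (0.254, adjusted permutation p = 0.0895) to Rarb (-0.217, adjusted permutation p = 0.745). Both calls lay near the threshold. Leaving out a library leaves fewer possible assignments and so raises the smallest p that the permutation can give. A call lost in this way therefore does not show that it depended on single libraries. With 1 library left out at a time, the adjusted permutation p of Isl1 ran from 0.0183 to 0.0828 and was under 0.05 in 5 of 17 cases, and that of Foxp2 ran from 0.0285 to 0.0965 and was under 0.05 in 2 of 17.

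**Figure D1:**
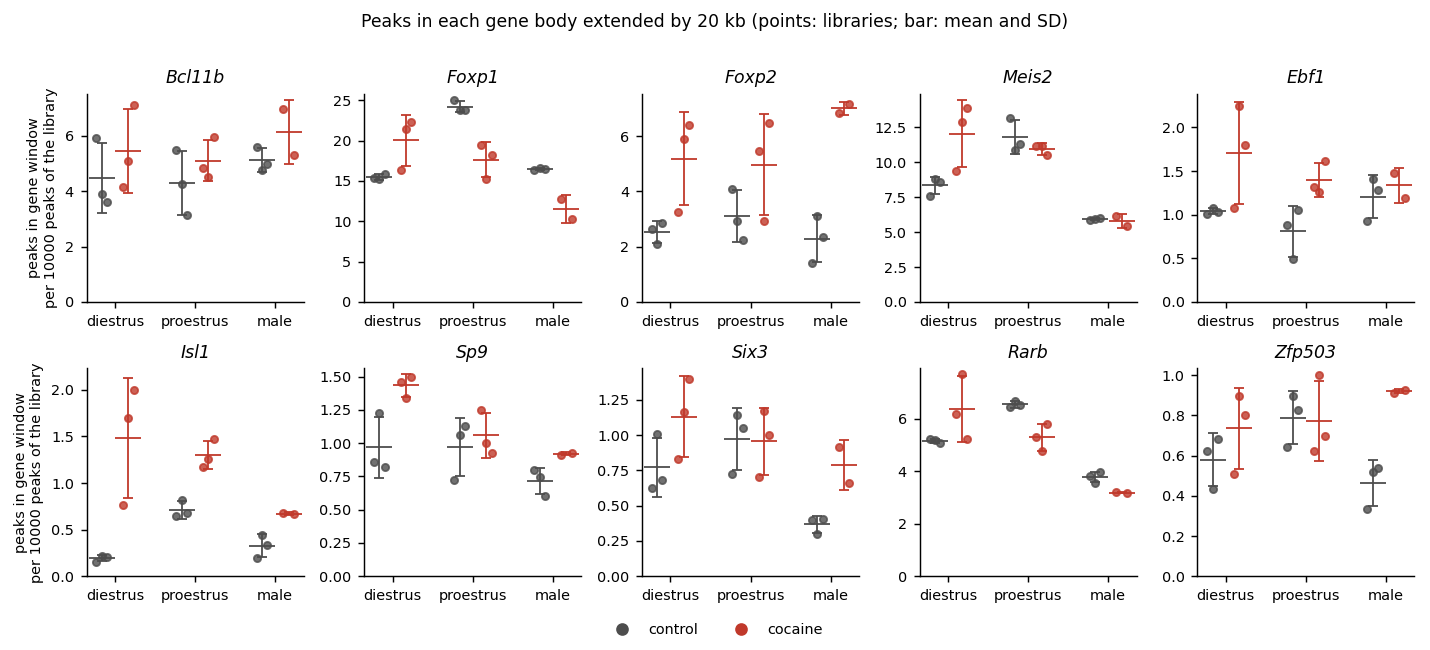
Peaks in each gene body extended by 20 kb, per 10000 peaks of the library (vertical axis), for diestrus, proestrus and male libraries (horizontal axis). Points are libraries, and bars are the mean and SD of 3 libraries (2 for male cocaine). For Isl1 the cocaine libraries lie above the controls in each stratum, from 0.663 to 2.00 against 0.155 to 0.816 over all strata, and for Foxp1 they lie above in diestrus and below in proestrus and males.

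Within strata, the same values were compared by whether treated and control libraries overlapped, with no test, since 3 libraries against 3 or 2 against 3 cannot give an exact p under 0.1. In diestrus, 7 of the 10 genes (Foxp1, Foxp2, Meis2, Ebf1, Isl1, Sp9 and Rarb) had more peaks per 10000 in every treated library, against 7.61% of all genes, and 0 had fewer, against 9.06%. Ebf1 and Rarb were separated by margins under the rounding used here (1.08 for Ebf1 in diestrus control 2 and in diestrus cocaine 1, and 5.21 for Rarb in diestrus control 1 and in diestrus cocaine 3). In proestrus Ebf1 and Isl1 were higher (11.7% of all genes) and Foxp1 and Rarb lower (21.6%). In males Foxp2, Isl1, Sp9, Six3 and Zfp503 were higher (23% of all genes) and Foxp1 and Rarb lower (21.6%). Unscaled, the Sp9 peaks of males were fewer after cocaine (12, 10 and 9 against 8 and 7). Unscaled peaks in males overlapped for Six3 (6, 4 and 6 against 8 and 5) and Zfp503 (5, 7 and 8 against 8 and 7). In diestrus they overlapped for Foxp1 (198, 211 and 233 against 258, 239 and 223). Sp9 (11, 17 and 12 against 23, 15 and 15) and Rarb (67, 72 and 74 against 97, 86 and 52) overlapped there too.

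Foxp1, the gene with the most peaks, showed the widest spread between strata in absolute peaks per 10000, but not in proportion to its level. Its diestrus controls had 15.4, 15.2 and 15.9 peaks per 10000, and the treated libraries 16.4, 21.4 and 22.3. In proestrus the order was the opposite, with 25.0, 23.8 and 23.8 in controls and 19.4, 15.2 and 18.2 after cocaine. Male controls had 16.3, 16.6 and 16.5, and male cocaine libraries 12.7 and 10.3. The proestrus controls were thus the highest of the 6 groups for Foxp1, and the male cocaine libraries the lowest.

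The second comparison asked which single regions were called in every treated library and in no control library of a stratum (gained), or the converse (lost). In diestrus 13 of the 424 regions (3.07%) were gained, against 1.16% of all regions, and 0 were lost, against 1.26%. In proestrus 9 (2.12%) were gained against 2.45% of all regions, and 9 (2.12%) were lost against 1.64%. In males 12 (2.83%) were gained against 1.66%, and 59 (13.9%) were lost against 16.8%. The counts in males moved with the number of peaks: when each library was cut to its 75458 strongest peaks, 24 regions were gained and 13 lost, against 4.14% and 9.50% of all regions under that setting. The regions to keep were chosen anew under that setting, so these counts are not out of 424. The number kept there at the 10 genes is not given here.

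Isl1 held 5 of the 13 regions gained in diestrus, out of 12 kept regions. Isl1 -3.5 kb (chr13:116311835-116313607, upstream of the gene) was at 0 in the 3 diestrus controls, meaning no peak, and at fold enrichments of 2.85, 4.15 and 3.68 in the treated libraries. It was called in 1 of 3 proestrus controls (2.18), in all 3 proestrus cocaine libraries (3.51, 3.96 and 3.14) and in no male library. Isl1 +9.7 kb (chr13:116299449-116300346), which overlaps an exon, had 3.56, 4.53 and 2.87 after cocaine in diestrus, and 0 in the controls. The regions at +8.7, +13.1 and +15.9 kb, the last 2 downstream of the gene, were the other 3 and are named here after their values were seen.

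Isl1 -6.6 kb (chr13:116315597-116317152) was called in 0 of 9 control libraries and in 6 of 8 cocaine libraries. Its fold enrichment was 2.37, 0 and 2.76 in diestrus cocaine, 0, 2.57 and 2.93 in proestrus cocaine and 2.84 and 2.67 in male cocaine. These were low values, from 2.37 to 2.93. The Isl1 gene-start region (chr13:116307674-116310459) was called in all 17 libraries with fold enrichments of 4.72 to 12.3.

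**Figure D2:**
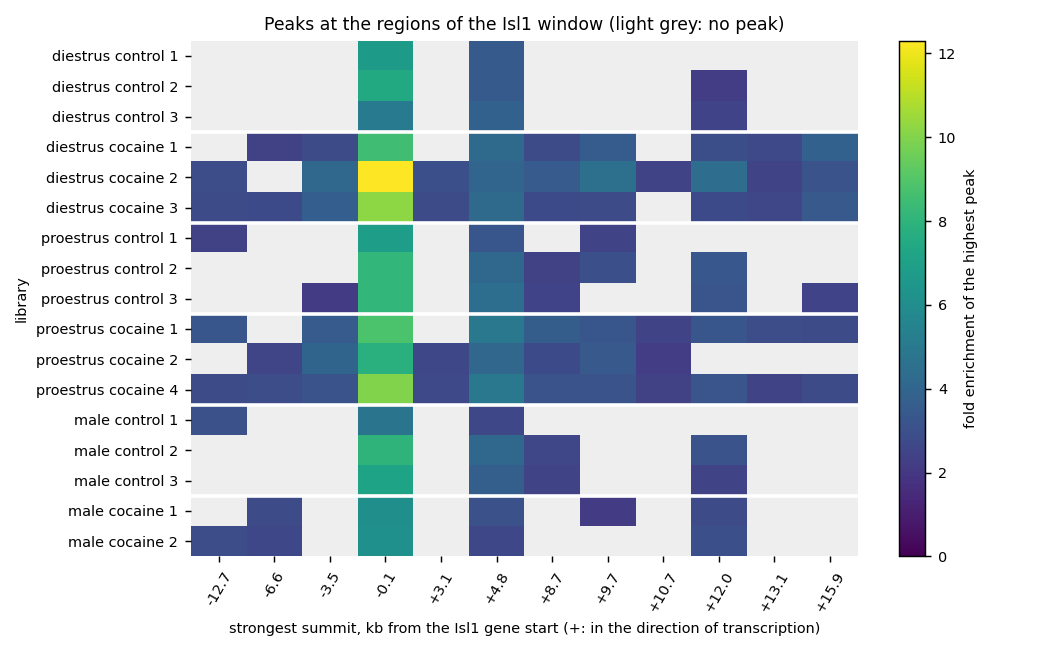
Fold enrichment of the highest peak (colour) at the 12 kept regions of the Isl1 window (horizontal axis, kb from the gene start) in each of the 17 libraries (vertical axis). Light grey is no peak. The 3 diestrus controls have peaks at 2 or 3 of the regions, -6.6 kb has a peak in 6 of the 8 cocaine libraries and 0 of the 9 controls, and the start region is the strongest in each library.

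Foxp2 held 11 of the 12 regions gained in males, out of 62 kept regions (17.7%). Foxp2 +95.4 kb (chr6:14996556-14997070) was called in all 3 proestrus cocaine libraries (2.10, 2.57 and 2.83), in both male cocaine libraries (2.95 and 3.25) and in none of the 9 controls. Foxp2 +500.1 kb (chr6:15400998-15401668) was gained in diestrus (3.68, 3.40 and 3.91) and in males (3.28 and 3.02), with 1 of 9 controls calling it (3.06 in proestrus control 1). Foxp2 +534.3 kb (chr6:15435164-15435911), whose window holds the AP-1 motif, was called in 8 of 8 cocaine libraries (2.44 to 4.82) and in 3 of 9 controls (2.27 to 2.49). All 3 lie in introns.

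The Foxp2 regions were AT-rich, as were the regions gained in males in general. The median GC content of whole regions was 35.3% at Foxp2 and 44.4% over all regions, and regions gained in males had a median of 29.7%. Among all regions with a GC content between 32.0% and 37.8%, 2.41% were gained in males, 5.38% in proestrus and 2.07% in diestrus. The corresponding shares of all kept Foxp2 regions, of any GC content, were 17.7%, 6.45% and 1.61%. The range leaves out regions under 32.0%, where the median of those gained in males (29.7%) lay. The 2.41% is therefore not a background matched in GC content to the Foxp2 regions gained in males. The number of unscaled Foxp2 peaks in males was 21, 42 and 35 in controls and 60 and 54 after cocaine, although the treated libraries held the fewest peaks of all 17. The part of base composition in the Foxp2 result was not tested.

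Foxp1, with 159 of the 424 regions, held 8 of the 9 lost in proestrus and 31 of the 59 lost in males. These were 5.03% and 19.5% of its regions, against 1.64% and 16.8% of all regions. Foxp1 +489.3 kb (chr6:99032962-99033680, intronic) had fold enrichments of 2.85, 3.13 and 4.08 in the proestrus controls and no peak after cocaine, and over all strata it was called in 9 of 9 controls and 3 of 8 cocaine libraries. Ebf1, whose factor marks the direct-pathway lineage, had 3 of its 24 regions gained in proestrus (12.5%, against 2.45% of all regions). It had 6 lost in males (25.0%, against 16.8%). Meis2, which codes for a TALE homeodomain factor, had 3 of its 62 regions gained in diestrus (4.84%, against 1.16% of all regions). It had 5 lost in males (8.06%), a lower share than the 16.8% of all regions. Sp9 and Zfp503, with 13 and 7 regions, held 0 gained and 0 lost regions in the 3 strata.

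The calls at 3 regions were separated in opposite directions in 2 strata. Meis2 +56.0 kb (chr2:116008989-116011039, intronic) was at 0 in diestrus controls and at 3.44, 4.03 and 3.33 after cocaine, but at 3.82, 4.27 and 5.38 in male controls and 0 in both male cocaine libraries. Ebf1 +360.7 kb (chr11:44977689-44978385) was at 0 in proestrus controls and at 2.90, 2.57 and 2.51 after cocaine, and at 5.48, 6.61 and 6.04 in male controls and 0 in male cocaine. Foxp1 +563.4 kb (chr6:98958759-98959648) was gained in diestrus (2.26, 2.52 and 2.41) and lost in proestrus (2.75, 2.55 and 3.03 in controls).

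**Figure D3:**
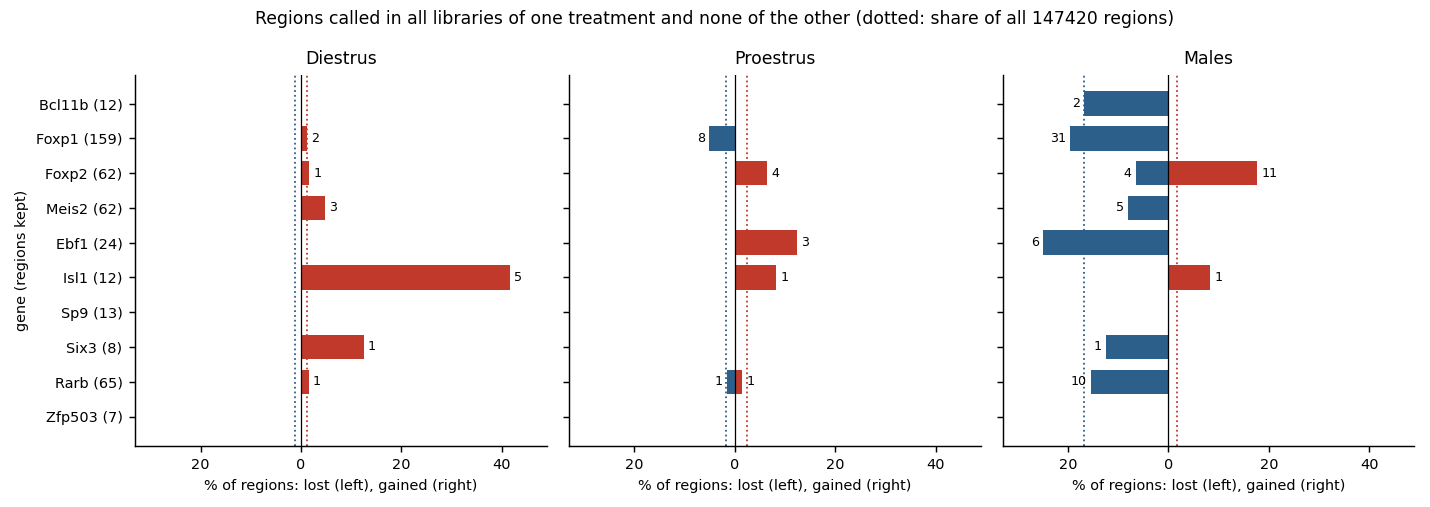
Share of each gene's kept regions (horizontal axis, percent, lost to the left and gained to the right) that were called in every library of one treatment and none of the other, in diestrus, proestrus and males. Numbers at the bars are regions, numbers in brackets are the regions kept per gene, and dotted lines are the shares of all 147420 regions. Isl1 has 41.7% gained in diestrus, Foxp2 17.7% gained in males, and Foxp1 19.5% lost in males.

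The gained and lost regions were weaker than those called everywhere, at the 10 genes as over the genome. The median fold enrichment where called was 2.77 over the 32 regions gained in at least 1 stratum, 3.00 over the 68 lost and 5.80 over the 82 called everywhere, against 2.95, 3.19 and 6.25 over all such regions. Of the 32, 2 (6.25%) held the AP-1 motif, against 13.7% of the 7403 regions gained over the genome. Leaving out a library can only keep or raise the counts of gained and lost regions, because fewer libraries then have to separate. A rise therefore does not show that a count depended on single libraries. Leaving out 1 diestrus cocaine library gave 28 (without 1 or 3) or 21 (without 2) regions gained in diestrus. There were 1 to 7 lost without diestrus control 2 (7) or 3 (2) or diestrus cocaine 1 (3) or 3 (1). In proestrus, leaving out control 1 or cocaine 2 gave 15 or 18 gained, and leaving out control 1, control 2 or cocaine 1 gave 16, 22 or 20 lost. In males 22 were gained without male cocaine 2.

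A Fisher exact test of calls over all 8 cocaine and 9 control libraries was possible at 213 regions of the 10 genes that were called in 4 to 13 libraries. No region passed at an adjusted p under 0.05, at the 10 genes or among the 64304 tested (0% of all). At an unadjusted p under 0.05, 17 were called more often after cocaine, against 3.81% of all regions tested, and 7 less often, against 9.23%. The smallest exact two-sided p was 0.00226, at Isl1 -6.6 kb (adjusted 0.216). It was followed by Foxp2 +500.1 kb (7 of 8 against 1 of 9, exact p = 0.00337), Foxp2 +534.3 kb (8 against 3, exact p = 0.00905), Foxp1 +489.3 kb (3 against 9, exact p = 0.00905) and Foxp2 +95.4 kb (5 against 0, exact p = 0.00905). With calls permuted within strata, 14 of the 213 (6.57%) had an unadjusted exact p under 0.05, against 10.1% of all regions tested, with a smallest p of 0.00400 (adjusted 0.304).

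The third comparison asked whether the height of the 82 peaks called in every library differed, using limma on quantile-normalized log2 fold enrichment over all 36847 such regions. In diestrus 8 of the 82 were higher after cocaine at an adjusted p under 0.05, against 6.65% of all regions, and 1 was lower, against 6.36%. Of these 8, 5 were gene-start regions, those of Meis2, Foxp2, Isl1, Sp9 and Foxp1. How many gene-start regions over the genome were higher was not counted. The 5 are therefore not shown to be particular to these genes. Here and below, a start means the whole region that holds it, and its height is that of its highest peak. In the wide regions of Meis2 (35.6 kb) and Foxp1 (15.3 kb) that peak need not lie at the start itself in each library. The Meis2 start was at 3.11, 3.44 and 3.03 (log2 height) in diestrus controls and at 3.78, 3.76 and 3.93 after cocaine, without overlap. Its change was 0.63 (SE 0.13), with a limma adjusted p of 0.00445.

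The Isl1 start was at 2.76, 2.80 and 2.28 in diestrus controls and at 2.79, 3.40 and 3.64 after cocaine, a change of 0.66 (SE 0.20; limma adjusted p = 0.0259) with 1 treated library inside the control range. The Foxp2 start was at 2.39, 2.11 and 2.33 against 2.53, 3.19 and 3.08, a change of 0.65 (SE 0.18; limma adjusted p = 0.0173). The starts of Sp9 (0.48, SE 0.16; limma adjusted p = 0.0464) and Foxp1 (0.47, SE 0.16; limma adjusted p = 0.0478) passed narrowly. The other 3 higher regions were Foxp2 +510.3 kb (0.63), which overlaps an exon, Foxp1 +494.4 kb (0.56), at another transcript start, and, named after its value was seen, Foxp1 +370.8 kb (0.52), which overlaps an exon. The lower one was Rarb +77.6 kb (-0.46). The median change over the 82 was 0.05, against 0.00 over all regions.

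The number of diestrus calls changed most when any 1 of 10 libraries was left out, and some of these were not diestrus libraries. Some of the calls had passed narrowly, as given above. It was 13 without diestrus cocaine 1, but 1 without diestrus control 3 or diestrus cocaine 2, 2 without diestrus cocaine 3, 4 without diestrus control 1 and 5 without diestrus control 2, proestrus control 2, male control 3, male cocaine 1 or male cocaine 2. The lower Rarb region did not pass without diestrus control 2 or 3, diestrus cocaine 1 or 2, or proestrus control 2.

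In proestrus 0 of the 82 were higher (2.57% of all regions) and 4 lower (2.44%). The 4 were Rarb +80.3 kb (-0.62, SE 0.17), Rarb +219.7 kb (-0.58, SE 0.15), Foxp1 +572.4 kb (-0.53, SE 0.16) and Foxp1 +138.0 kb (-0.52, SE 0.15), with limma adjusted p from 0.0239 to 0.0479. Rarb +80.3 kb was at 2.35, 2.59 and 2.02 in proestrus controls and at 1.75, 1.86 and 1.49 after cocaine. The 4 calls fell to 0 without proestrus control 1 or proestrus cocaine 4, to 1 without control 2, control 3 or cocaine 1, and to 2 without cocaine 2.

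In males 2 of the 82 were higher (3.54% of all regions) and 3 lower (5.06%). The start of Sp9, a zinc finger factor of the indirect pathway, was at 2.49, 2.40 and 2.33 in male controls and at 3.33 and 3.07 after cocaine, a change of 0.79 (SE 0.18; limma adjusted p = 0.00538). Rarb +51.2 kb rose by 0.65 (SE 0.19). Foxp1 +286.9 kb (-0.71, SE 0.20), Foxp1 +146.7 kb (-0.63, SE 0.17) and Rarb +80.3 kb (-0.64, SE 0.19) were lower. Rarb +80.3 kb was thus lower after cocaine in males and in proestrus, and in diestrus it was at 2.11, 2.18 and 2.53 against 2.08, 2.11 and 2.02, without a call. Leaving out male control 1, male control 3 or male cocaine 2 left 1 higher region, and leaving out male cocaine 1 left 0. The lower calls fell to 1 without male control 1 and to 0 without male control 3, male cocaine 1 or male cocaine 2.

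**Figure D4:**
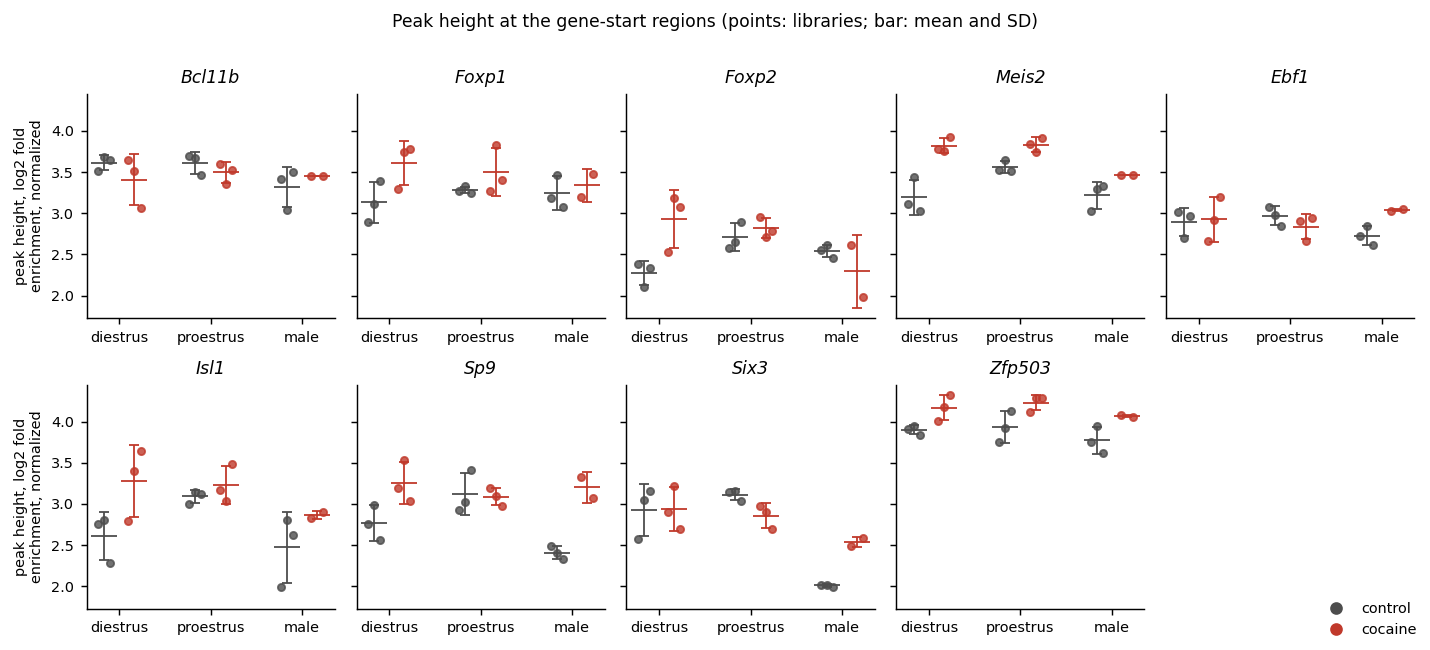
Peak height (vertical axis, log2 fold enrichment after quantile normalization) at the gene-start regions of 9 genes in diestrus, proestrus and male libraries. Points are libraries, and bars are the mean and SD of 3 libraries (2 for male cocaine). The Meis2 start is at 3.03 to 3.44 in diestrus controls and at 3.76 to 3.93 after cocaine, and the Six3 start is lowest in male controls, at 1.99 to 2.02.

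Whether the cocaine effect itself differed between groups was tested by limma interaction terms chosen after the data were seen. Between males and the mean of the female stages it differed at 4 of the 82 regions, against 19.7% of all regions. Those 4 were Rarb +101.1 kb (0.71, SE 0.23), Zfp503 -6.0 kb (0.69, SE 0.23), Meis2 +63.3 kb (0.66, SE 0.21) and Six3 -0.3 kb (0.65, SE 0.22), all more positive in males, with limma adjusted p from 0.0253 to 0.0362. At these 4 regions the mean height of male controls lay under that of diestrus and of proestrus controls. The means were 2.01 against 2.93 and 3.11 at Six3 -0.3 kb, and 2.31 against 2.86 and 3.12 at Zfp503 -6.0 kb. They were 2.09 against 2.51 and 2.76 at Meis2 +63.3 kb, and 1.53 against 2.02 and 1.99 at Rarb +101.1 kb. The same male controls enter this term, and their part in it was not tested. Between diestrus and proestrus the cocaine effect differed at 0 of the 82, against 0.00543% of all regions. By the unadjusted limma p, 10 of the 82 (12.2%) were under 0.05, all 10 more positive in diestrus, against 7.03% of all regions in either direction. Of the 82 estimates 66 (80.5%) were positive, against 51.1% of all. The diestrus rise at the 5 gene-start regions was therefore not shown to differ from proestrus.

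Male and female controls differed in height at more of the 82 regions than cocaine and control did in any stratum. The same held over all regions, and this comparison had more libraries. With 3 male and 6 female control libraries, 25 of the 82 (30.5%) were lower in males, against 12.6% of all regions, and 2 (2.44%) were higher, against 13.1%. The median difference was -0.21 over the 82 and -0.01 over all regions. All of the genes but Isl1 and Ebf1 had a lower region, 9 at Foxp1, 5 at Rarb, 4 at Meis2, 2 each at Bcl11b and Six3 and 1 each at Foxp2, Sp9 and Zfp503. The count was 16, 12 and 15 without male control 1, 2 and 3, and the higher count was 1 without diestrus control 3, proestrus control 2, male control 1 or male control 2 and 0 without male control 3.

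The Six3 start (chr17:85612276-85615744) differed most. Six3, a homeodomain factor, was at 2.02, 2.02 and 1.99 in male controls, at 2.57, 3.05 and 3.16 in diestrus controls and at 3.15, 3.16 and 3.03 in proestrus controls. The difference was -1.01 (SE 0.14; limma adjusted p = 6.63e-06), with no overlap of the sexes. Six3 +7.2 kb, the strongest region of that gene, was lower by -0.54 (SE 0.12; limma adjusted p = 0.00136).

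Rarb +51.2 kb (-0.83, SE 0.15; limma adjusted p = 1.36e-04), Zfp503 -6.0 kb (-0.68, SE 0.15; limma adjusted p = 0.00169), Foxp1 +261.9 kb (-0.62, SE 0.17; limma adjusted p = 0.00773) and Rarb +226.4 kb (-0.61, SE 0.15; limma adjusted p = 0.00293) followed. The Sp9 start was lower in male than in female controls by -0.54 (SE 0.14; limma adjusted p = 0.00548). The same male controls enter the male cocaine comparison, in which the Sp9 start was higher after cocaine. The 2 regions higher in males were Rarb +80.3 kb (0.49, SE 0.15) and Foxp1 +146.7 kb (0.41, SE 0.13), and both were lower after cocaine in males. The markers of cortical excitatory neurons were highest in the male controls, and their part in these differences was not tested.

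**Figure D5:**
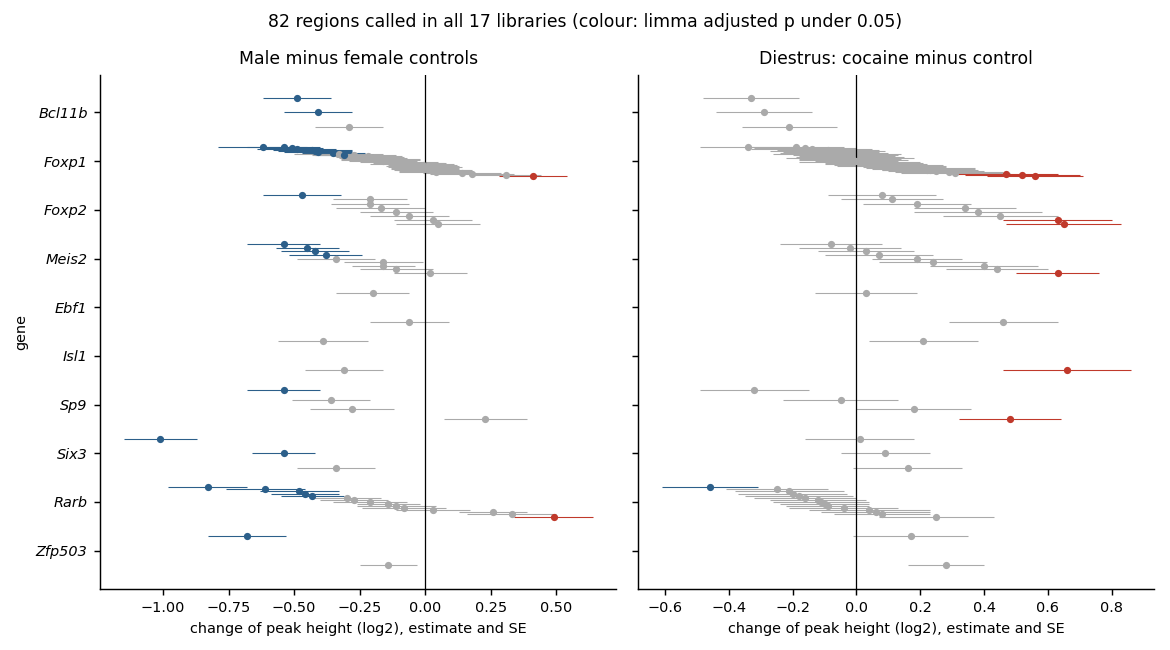
Change of peak height (horizontal axis, log2, estimate and SE from limma) at the 82 regions called in all 17 libraries, ordered within each gene, for male minus female controls (left) and cocaine minus control in diestrus (right). Colour marks a limma adjusted p under 0.05, blue lower and red higher. On the left 25 regions are lower and 2 higher, with the Six3 start at -1.01, and on the right 8 are higher and 1 lower.

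By calls, 10 of the 424 regions were found in all 3 male and no female control libraries, against 7.20% of all regions, and 5 in all 6 female and no male control libraries, against 0.314%. Zfp503 -1.4 kb (chr14:21990253-21991885), just upstream of the gene, was called in 12 of 12 female libraries, treated ones included (2.58 to 4.15), and in 0 of 5 male libraries. The other 4 were Meis2 +188.3, +162.5 and +60.2 kb and Foxp1 +361.1 kb. In peaks per 10000, Meis2, Six3 and Rarb were lower in every male than in every female control (13.4% of all genes), and 0 of the 10 genes were higher (10.0%).

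Diestrus and proestrus controls, which have no drug difference, were compared last. By height, 0 of the 82 regions were higher in diestrus (0.516% of all regions) and 0 lower (0.176%) at an adjusted p under 0.05 by limma, and by the unadjusted limma p 2 were higher and 14 lower, 19.5% of the 82 against 15.4% of all regions. The median difference was -0.16 over the 82 and -0.01 over all regions. By calls, 1 region was found only in diestrus controls (3.96% of all regions) and 10 only in proestrus controls (0.792%), of which 9 lay at Foxp1 and 1 at Rarb. Foxp1, Meis2, Isl1 and Rarb had fewer peaks per 10000 in every diestrus than in every proestrus control (13.8% of all genes), and 0 genes had more (8.18%).

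These controls are also the reference for the diestrus and proestrus cocaine comparisons. For Meis2 the diestrus controls had 7.62, 8.80 and 8.62 peaks per 10000, the proestrus controls 13.2, 10.9 and 11.3, diestrus cocaine 9.36, 12.9 and 13.9 and proestrus cocaine 11.2, 11.2 and 10.5. The Meis2 values after cocaine in diestrus overlapped those of the proestrus controls. The number of regions found only in diestrus controls was 6, 8 and 3 without diestrus control 1, 2 and 3 and 2 and 3 without proestrus control 1 and 3, and that found only in proestrus controls was 18 and 17 without diestrus control 1 and 3 and 22, 27 and 21 without proestrus control 1, 2 and 3. Such counts can only stay or rise when a library is left out.

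A list of 17 other striatal transcription factor genes (among them Dlx1, Pbx3, Ikzf1 and Mef2c) held 253 kept regions. Of these, 6 (2.37%) were gained and 2 (0.791%) lost in diestrus. In proestrus 2 (0.791%) were gained and 3 (1.19%) lost, and in males 2 (0.791%) were gained and 34 (13.4%) lost. At the 10 genes the corresponding counts out of 424 were 13 (3.07%) and 0, 9 (2.12%) and 9 (2.12%), and 12 (2.83%) and 59 (13.9%). Over all regions the shares were 1.16% and 1.26%, 2.45% and 1.64%, and 1.66% and 16.8%. The share gained in diestrus was thus above that of all regions in both lists.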

How the data were processed

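ATAC-seq peaks of 17 libraries were used as deposited. Per the submitters' processing notes and the methods, the authors aligned reads to mm10 with BWA and ran MACS2 on every library separately; featureCounts and DESeq2 are also named, and their counts were not used here. Versions and calling parameters are not given in the sources used here. The deposited values are a score per peak, fold enrichment (a ratio to local background), and −log10 p and −log10 q. The authors' −log10 q served only as a filter in an alternative, and the score was not used.

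Peaks overlapping by 1 bp were merged, and regions called in at least 2 libraries of 1 group were kept. Genes and starts were from GENCODE vM21, and sequences from the GRCm38 assembly. A library that did not call a region has the value 0 there. No pair of libraries shared more than 0.0728% of its exact intervals, and each library was counted once. Per the methods, the libraries of a group are biological replicates, each pooled from 3 animals.

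Calls were compared by complete separation within strata and by a two-sided Fisher exact test over regions called in 4 to 13 libraries. Peak height (highest fold enrichment in a region) was compared with limma 3.58.1 in R 4.3.3, using quantile normalization and a trended empirical Bayes fit over 6 groups. Peaks per gene window were compared by exact permutation within strata. P-values were adjusted by Benjamini-Hochberg over all features at a threshold of 0.05. The tests were tested on simulated data. Other tools were Python 3.11.15, pandas 2.3.3, scipy 1.17.1 and matplotlib 3.10.9.

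Named regions were the gene-start regions, regions separated in at least 2 strata, up to 5 gained and 5 lost regions per stratum by median fold enrichment, up to 5 higher and 5 lower per height contrast, the 5 with the smallest Fisher p, the 10 strongest, and up to 5 per direction in each control comparison; others named were chosen after their values were seen. The genes and lists were chosen with earlier results of these data known. One marker gene of the lists is not reported here. The interaction terms, the overlap of gene-window values and the GC comparison were chosen after the data were seen.

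The alternatives were a −log10 q of at least 5, equal numbers of peaks per library, a 50% coverage of the region, stratified and paired tests, median centring, 5 kb flanks, other scalings of gene windows and leaving out each library.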

Additional observations from a re-analysis of the deposited data

Results flagged for a closer look

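The effect of cocaine on peak height differed between males and the mean of the female stages at 4 regions by a limma interaction term: Meis2 +63.3 kb by 0.66, Rarb +101.1 kb by 0.71, Zfp503 -6.0 kb by 0.69 and Six3 -0.3 kb by 0.65 on the log2 scale, each more positive in males. The share of all regions passing this test was 19.7%. At these 4 regions the male controls had a lower mean height than either female control group. The same male controls enter the term, and their part in it was not tested.

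At 3 regions every treated library of 1 stratum called a peak that no control did, while in another stratum the calls were the other way round. Ebf1 +360.7 kb (called in 7 of 17 libraries) was gained in proestrus and lost in males, Foxp1 +563.4 kb (called in 7) was gained in diestrus and lost in proestrus, and Meis2 +56.0 kb (called in 11) was gained in diestrus and lost in males. These differences between strata were not tested.

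The number of Foxp1 peaks per 10000 was higher after cocaine in every diestrus library, by 4.60 in the mean, and lower in every proestrus and male library, with mean differences of -6.60 and -5.00. For Rarb the same differences were 1.21 in diestrus (where 1 treated and 1 control library were equal after rounding), -1.26 in proestrus and -0.590 in males. The differences between strata were not tested. Groups of 2 or 3 libraries were too small to be examined for single outlying libraries.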

How the results depend on the processing

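All counts here are of the 10 genes, and percents in brackets are shares of all regions or genes under the same setting. Restricted to peaks reaching a −log10 q of 5, diestrus had 8 regions gained (1.23%) and 1 lost (0.995%). Under the same filter proestrus had 5 (2.31%) and 2 (0.999%), and males 3 (0.565%) and 35 (19.1%). It left 0 found only in female controls (0.151%) and 4 only in proestrus controls (0.601%), and no gene window passed (0%). With equal numbers of peaks per library, 1 was lost in diestrus (1.19%), 5 in proestrus (1.34%) and 13 in males (9.50%). In males 24 were gained (4.14%), and 4 were found only in male controls (6.24%). With peaks covering 50% of a region, 6 were gained (1.45%) and 32 lost (23.1%) in males and 2 were found only in diestrus controls (4.19%). For height, median centring gave 0 lower regions in diestrus (4.90%) and 4 higher in males (5.56%). Only regions of −log10 q of at least 5 throughout gave 1 higher (3.20%) and 0 lower (4.83%) in males. That setting gave 0 higher in male than in female controls (13.5%). Gene windows with 5 kb flanks gave 0 calls (1.01%), and bases covered gave 4, with 15.6% of all genes passing. Isl1 and Foxp2 had more peaks in each of these settings. The change of Bcl11b turned to -3.28 with unscaled peaks (adjusted permutation p = 0.785) and -0.504 with bases covered (adjusted permutation p = 0.537), and that of Meis2 to -7.17 with unscaled peaks (adjusted permutation p = 0.597). The cause of these changes was not tested.

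Replicate numbers did not pair the libraries: the correlations of same-numbered deviations were -0.228, 0.00566 and -0.143 in diestrus, 0.149 and 0.0967 in proestrus and, in males, 0.00589 and 0.00391. With the replicate block, height gave 4 higher (3.15% of all regions) and 0 lower (3.25%) regions in diestrus. It gave 0 lower in proestrus (0.0570%) and 1 higher (0.953%) and 0 lower (1.88%) in males. The paired tests of calls and of gene windows gave 0. With only 7 pairs their smallest possible p is too large for most adjustments over all features, so this 0 decides nothing.

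Leaving out each library in turn gave 13 to 28 gained and 0 to 7 lost regions in diestrus, 9 to 18 and 9 to 22 in proestrus; males had 12 to 22 gained and 59 to 84 lost. Regions found only in diestrus controls numbered 1 to 8, only in proestrus controls 10 to 27, only in male controls 10 to 13 and only in female controls 5 to 7. The lowest of each of these ranges is the count with all libraries, since leaving a library out can only keep or raise it. By height, 1 to 13 were higher and 0 to 1 lower in diestrus, 0 to 5 lower in proestrus, 0 to 3 higher and 0 to 3 lower in males, and 0 to 3 higher and 12 to 26 lower in male than in female controls. Gene windows gave 0 to 3 calls and the Fisher exact test gave 0. For gene windows, leaving out a library also raises the smallest p that the permutation can give. Without read counts, an absent peak cannot be told from low depth.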
